A study of Mus musculus with 18 samples.

Results

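Bone of the skull vault was compared 2 days after an ischemic injury and in controls, gene by gene, in 6 of the 18 libraries of the study. The mice were of the BALB/c strain, and the bone was the interparietal bone, the plate at the back of the skull vault. The groups were controls (3 libraries) and bone taken 2 days after the injury (3 libraries). The labels call the controls only a control for skull and do not say whether they had a sham operation. A further 3 libraries of the same bone, taken 4 days after the injury, entered the model for the spread between libraries. They are given beside the day 2 values. No genotype, transgene, sex or age is named in the labels, and how the ischemia was produced is not given in the sources used here. Harvested tissue held the ischemic area and its surroundings, and RNA with poly(A) tails was sequenced in read pairs. The labels do not say that each library came from a separate animal, so the p-values measure the spread between these libraries. All 17450 genes that passed a filter on low counts were tested; the 6 libraries held 13398631 to 15382973 counts each. Levels are given as CPM, the counts scaled to a common library size with TMM factors, and are compared between libraries, not between genes, since they are not divided by gene length. Whether counting used the strand is not given in the sources used here, so genes that overlap another gene are uncertain. Gene positions are from the GENCODE annotation of mm10. A gene is said to have risen or fallen where the edgeR quasi-likelihood test gave a Benjamini-Hochberg adjusted p under 0.05, and each change is day 2 minus control on the log2 scale with its standard error.

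The skull vault is a thin plate of bone with a marrow space inside, lined by periosteum on its outer face and by the dura on its inner face. Osteoblasts lay down the collagen matrix and mineral, osteoclasts resorb it, and osteocytes sit within it; the marrow between makes neutrophils, monocytes, B cells, platelets and red cells, and channels through the inner plate connect it with the meninges. Tissue that has lost its blood supply is known to switch on genes of the hypoxia response, and injured tissue releases cytokines that draw neutrophils and monocytes and that act on marrow production. RNA from whole tissue pools all of these cells, so fewer cells of a type and less RNA per cell cannot be told apart in any value given here.

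The libraries were checked before the comparison. The defining genes of bone were abundant in all 6: Col1a1, the main collagen chain of bone, was at 38388, 19876 and 31726 CPM in the controls and 33874, 30863 and 25334 CPM at day 2. Control replicate 3 stood apart from the other 17 libraries of the study. Over 15620 genes it was close to a weighted sum of the other controls, 0.603 times replicate 1 plus 0.366 times replicate 2. The median squared departure from that sum was 1.88 times the counting noise, against 3.85 to 12.3 times for the other 17 libraries fitted the same way. Its value lay between those of the other controls in 65.1% of genes, against 14.4% to 46.1% for the others. The labels give it as a separate library, and whether it is one was not tested; leading counts below are given with it and without it. The controls also differed in their levels of neuron, muscle and pineal gland genes, which are described below.

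**Figure D1:**
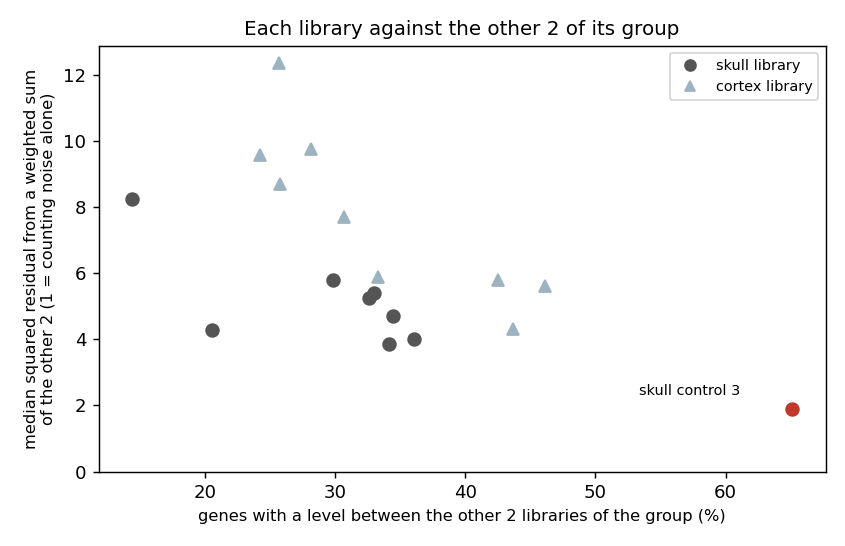
Each point is 1 of the 18 libraries, fitted as a weighted sum of the other 2 libraries of its group; the horizontal axis gives the percentage of genes in which it lies between them, and the vertical axis the median squared residual over counting noise. Control skull replicate 3 sits alone at 65.1% and 1.88, below and to the right of the other 17 libraries.

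At day 2, 3106 genes were higher than in control bone (17.8% of the genes tested) and 2901 were lower (16.6%). Without control replicate 3 the numbers were 2057 (11.5%) and 1967 (11%). Of the 6007 genes called (34.4%), 3552 kept the call when any 1 of the 9 skull libraries was left out, 3974 when control replicate 3 was, and 2326 when controls 1 and 2 alone were set against day 2. Of them 786 rose and 1401 fell at least 2-fold, and the median size of the change was 0.73 on the log2 scale; the median change over all genes tested was -0.01.

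The 10 genes with the smallest adjusted p among those that rose included 5 that are known to respond to low oxygen, Slc16a3, Angptl4, Fam162a, Ndufa4l2 and Ero1l. Slc16a3, which encodes the lactate exporter MCT4 and lies at chr11:120948480-120960868 (mm10), was at 24.7, 24.9 and 22.9 CPM in the controls and 103, 95.3 and 105 CPM at day 2. Ndufa4l2, a mitochondrial protein induced by hypoxia, was at 10.02, 12.8 and 10.7 CPM in the controls and 50.2, 59.7 and 60.6 CPM at day 2. Slc39a14, the zinc and iron importer ZIP14, was at 83.2, 83.7 and 82.0 CPM in the controls and 396, 385 and 475 CPM at day 2. In all 3 genes every day 2 library lay far above every control, and the replicates of a group were close to each other. Slc16a3 rose by 2.06 ± 0.09 (adjusted p = 1.79e-05). Ndufa4l2 rose by 2.35 ± 0.13 (adjusted p = 2.63e-05). Slc39a14 rose by 2.34 ± 0.13 (adjusted p = 2.63e-05). The remaining genes of this leading group were Angptl4, an inhibitor of lipoprotein lipase, at 2.08 ± 0.11 (adjusted p = 2.49e-05); Fam162a, a mitochondrial protein, at 1.53 ± 0.08 (adjusted p = 2.49e-05); and Angptl7, a secreted angiopoietin-like protein, at 2.66 ± 0.16 (adjusted p = 3.23e-05). Ugdh, which makes the sugar precursor of hyaluronan, rose by 1.29 ± 0.08 (adjusted p = 3.23e-05). Nes, an intermediate filament, rose by 1.60 ± 0.10 (adjusted p = 3.25e-05), and Ero1l, the oxidase that drives disulfide bonding in the endoplasmic reticulum, by 1.96 ± 0.13 (adjusted p = 4.19e-05). Fosl1, the AP-1 subunit FRA-1, went from 3.23, 4.12 and 3.07 CPM to 24.3, 24.5 and 30.2 CPM and rose by 2.92 ± 0.19 (adjusted p = 4.19e-05).

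Among the 10 genes that fell with the smallest adjusted p, 4 encode matrix proteins, Ecm2, Mfap4, Ltbp4 and Fbln7. Mylk, myosin light chain kinase, at chr16:34745210-35002420, was at 535, 525 and 518 CPM in the controls and 234, 228 and 231 CPM at day 2. Ecm2, an extracellular matrix protein, was at 232, 156 and 192 CPM in the controls and 48.6, 43.1 and 48.9 CPM at day 2. Il11ra1, the receptor chain for interleukin 11, was at 158, 147 and 139.6 CPM in the controls and 59.6, 63.2 and 57.3 CPM at day 2. No day 2 library reached the lowest control in any of the 3 genes. Mylk changed by -1.18 ± 0.07 (adjusted p = 2.68e-05), Ecm2 by -2.05 ± 0.14 (adjusted p = 4.19e-05) and Il11ra1 by -1.30 ± 0.08 (adjusted p = 3.23e-05). The microfibril proteins Mfap4 and Ltbp4 changed by -1.71 ± 0.13 (adjusted p = 6.13e-05) and -1.27 ± 0.10 (adjusted p = 6.13e-05), and the fibulin Fbln7 by -1.41 ± 0.09 (adjusted p = 3.25e-05). Wfdc1, Podxl2 and Rbpjl were the other genes outside the cortex-rich set, at -1.998 ± 0.14 (adjusted p = 4.19e-05), -1.35 ± 0.10 (adjusted p = 4.48e-05) and -2.01 ± 0.16 (adjusted p = 6.91e-05). The tenth gene, the calcium-binding protein Cabp1, fell by 1.61 ± 0.12 (adjusted p = 5.11e-05) and is at least 4-fold higher in control cortex than in control skull, which defines the cortex-rich set used below. All 20 genes kept the call when any 1 of the 9 libraries was left out.

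**Figure D2:**
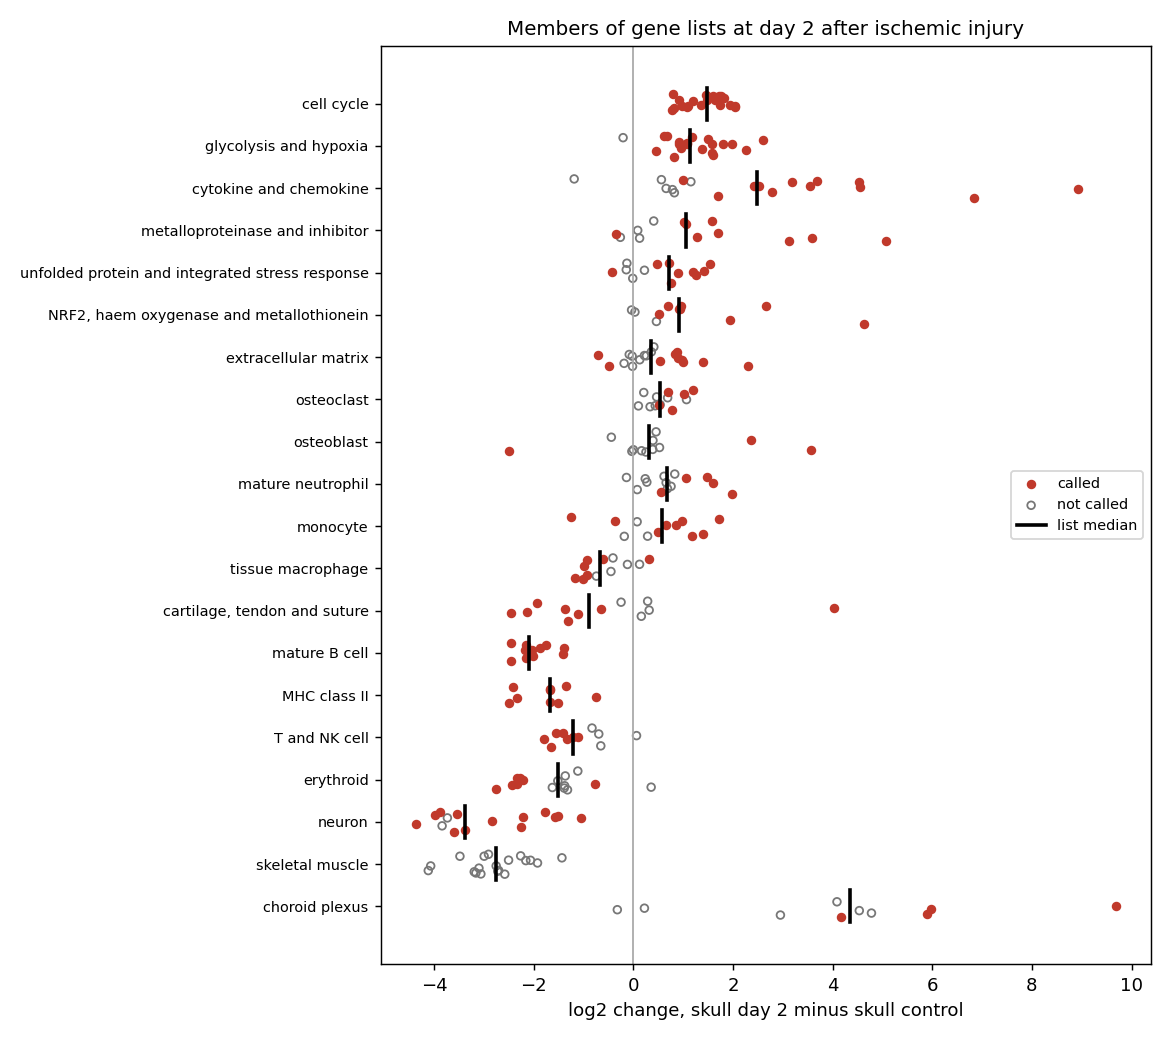
Log2 change at day 2 (horizontal axis) of the tested members of 20 gene lists (rows); filled points passed the test, open points did not, and the bar is the median of a list. All members of the cell cycle list and all but Aldoa of the glycolysis and hypoxia list lie to the right of 0, those of the mature B cell and MHC class II lists entirely to the left.

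Cytokines and chemokines were the list with the largest median rise among those with more than 10 members tested. Of its 18 members tested, 12 rose and none fell (of all genes tested 17.8% rose and 16.6% fell), with a median change of 2.48 (all genes tested -0.01). Without control replicate 3, 10 rose. In the main fit 1 member had a lower mean at day 2, with a change of -1.19, and did not pass. By limma voom 1 member was called lower, and 1 was without day 2 replicate 3. The neutrophil chemokines Cxcl1, Cxcl2 and Cxcl3 were near 0 in the controls. Cxcl1, at chr5:90891241-90893115, was at 1.48, 0.743 and 0.956 CPM in the controls and 16.7, 8.47 and 16.3 CPM at day 2. Cxcl2 was at 0, 0.0676 and 0 CPM in the controls and 4.00, 4.93 and 36.2 CPM at day 2, with day 2 replicate 3 the highest. Cxcl3, a close relative that was no member of the list, was at 0, 0 and 0 CPM in the controls and 3.32, 4.9999 and 9.27 CPM at day 2. Every day 2 library lay above every control in these 3 genes. Cxcl1 rose by 3.69 ± 0.42 (adjusted p = 0.000323). Cxcl2 had 1 count in the controls together and 684 at day 2, a ratio of 674 (95% exact interval 121 to 26672, counting error only; adjusted p = 0.00269). Cxcl3 had none and 265, at least 87.1-fold higher when the controls together are set to 3 counts (adjusted p = 0.000803). Cxcl5 rose by 4.55 ± 0.53 (adjusted p = 0.000506).

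The promoters of Cxcl1 and Cxcl2 are shown because both genes rose from near 0 and both hold matches, in capitals, to GGGNNTTTCC, the letters used here for a site of NF-kB, the main transcription factor of inflammatory genes. The sequences run 5′ to 3′ over the 250 bases before the start, on the plus strand of GRCm38.p6, from RefSeq: chr5:90890995-90891244 for Cxcl1, with matches starting 89 and 71 bases before the start, and chr5:90903649-90903898 for Cxcl2, with matches starting 97 and 78 bases before it.
Cxcl1: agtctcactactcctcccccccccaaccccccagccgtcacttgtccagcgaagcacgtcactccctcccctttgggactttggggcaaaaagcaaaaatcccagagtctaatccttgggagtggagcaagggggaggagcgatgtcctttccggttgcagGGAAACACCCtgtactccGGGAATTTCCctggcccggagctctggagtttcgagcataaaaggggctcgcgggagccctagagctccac
Cxcl2: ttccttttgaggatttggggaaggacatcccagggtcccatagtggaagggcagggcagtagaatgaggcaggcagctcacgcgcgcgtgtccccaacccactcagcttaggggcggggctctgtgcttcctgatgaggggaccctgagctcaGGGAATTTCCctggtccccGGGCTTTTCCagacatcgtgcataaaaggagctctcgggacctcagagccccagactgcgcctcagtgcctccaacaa
Both strands were searched over 300 bases, from 250 before to 50 after each start. Of the 14 listed cytokine genes with a promoter in the table, 5 held a match (Il6, Cxcl1, Cxcl2, Csf1 and Il1rn), against 1.89% of all 27025 genes. A match describes letters only and was not tested as a site.

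Of the interleukin 6 family, Il6, Il11 and Lif rose, and so did Socs3, Stat3 and Bcl3, which act downstream of it. Il6 itself was at 0.134, 0.338 and 0 CPM in the controls and 22.04, 11.2 and 23.9 CPM at day 2. Il11 was at 0.269, 0.540 and 0.410 CPM in the controls and 9.49, 5.33 and 13.9 CPM at day 2. Lif, leukemia inhibitory factor, was at 4.77, 4.93 and 3.55 CPM in the controls and 21.4, 16.0 and 33.8 CPM at day 2. The groups did not overlap in any of them, and day 2 replicate 2 was the lowest of its group in all 3. Il6 rose by 6.84 ± 1.06 (adjusted p = 0.00226), Il11 by 4.53 ± 0.47 (adjusted p = 0.000211) and Lif by 2.42 ± 0.28 (adjusted p = 0.000365). Downstream of this family, Socs3, the feedback inhibitor of STAT3 signalling, rose by 2.39 ± 0.26 (adjusted p = 0.000484), Stat3 by 0.63 ± 0.09 (adjusted p = 0.000718) and Bcl3 by 1.68 ± 0.13 (adjusted p = 6.13e-05). Socs3 went from 15.5, 32.1 and 20.4 CPM to 105, 117 and 134 CPM. The monocyte attractants Ccl2 and Ccl7 rose by 3.18 ± 0.42 (adjusted p = 0.000815) and 3.55 ± 0.69 (adjusted p = 0.00658), and Csf1, the growth factor of monocytes and osteoclasts, by 0.99 ± 0.09 (adjusted p = 0.000138). Ccl12 and Ccl3 also passed, at 1.69 ± 0.47 (adjusted p = 0.0205) and 2.79 ± 0.77 (adjusted p = 0.0228); for Ccl12 its adjusted p was 0.0609 to 0.0819 without any 1 of control replicates 1 and 3 and day 2 replicate 3, and for Ccl3 its adjusted p was 0.0681 to 0.0856 without any 1 of control replicates 1 and 3 and day 2 replicate 3. The members that did not pass included Tnf at 1.16 ± 0.48 (adjusted p = 0.0884), Il1b at 0.66 ± 0.33 (adjusted p = 0.148), Osm at 0.79 ± 0.31 (adjusted p = 0.0766) and Cxcl10 at 0.56 ± 0.67 (adjusted p = 0.541). Il1b was at 14.0, 10.4 and 10.9 CPM in the controls and 11.6, 17.6 and 26.6 CPM at day 2, and day 2 replicate 1 lay within the range of the controls.

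Arg1 and Saa3 were among the 10 largest rises of protein-coding genes whose higher group averaged 5 CPM or more and whose groups did not overlap. Arg1, arginase 1, at chr10:24915221-24927484, was at 0.134, 0.811 and 0.751 CPM in the controls and 78.5, 64.4 and 101 CPM at day 2. Saa3, an acute-phase apolipoprotein made outside the liver, was at 0.134, 1.76 and 1.23 CPM in the controls and 97.2, 118 and 131 CPM at day 2. Both were close to 0 in all controls and high in all day 2 libraries. Arg1 rose by 7.15 ± 0.44 (adjusted p = 5.11e-05) and Saa3 by 6.78 ± 0.77 (adjusted p = 0.000922). In the acute phase and iron binding list 6 of 10 members rose and none fell (median 0.71); without control replicate 3 it was 5. Il1rn, the interleukin 1 receptor antagonist, rose by 2.53 ± 0.33 (adjusted p = 0.000744), Ptx3, a soluble pattern-recognition protein, by 1.41 ± 0.32 (adjusted p = 0.0127), and Cp, the copper-carrying ferroxidase ceruloplasmin, by 0.69 ± 0.13 (adjusted p = 0.00277). Steap4, a metalloreductase, rose by 0.52 ± 0.08 (adjusted p = 0.00135). Lcn2 and Hp, which are also neutrophil granule genes, were at 0.23 ± 0.42 (adjusted p = 0.696) and 0.51 ± 0.23 (adjusted p = 0.124) and did not pass.

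Several enzymes that cut the matrix rose, with the largest changes in collagenase 3 and stromelysin 1. Mmp13, the collagenase of osteoblasts and hypertrophic chondrocytes, at chr9:7272514-7283331, was at 1016, 1326 and 1104 CPM in the controls and 12871, 11112 and 17334 CPM at day 2. Mmp3, stromelysin 1, at chr9:7445822-7455975, was at 4.37, 18.2 and 9.90 CPM in the controls and 342, 274 and 486 CPM at day 2. Timp1, a secreted inhibitor of these enzymes, was at 87.3, 166 and 120.3 CPM in the controls and 1038, 1039 and 1161 CPM at day 2. In each of the 3 genes the lowest day 2 library was several times the highest control. Mmp13 rose by 3.58 ± 0.24 (adjusted p = 4.23e-05), Mmp3 by 5.08 ± 0.55 (adjusted p = 0.000713) and Timp1 by 3.12 ± 0.30 (adjusted p = 0.000317). Of the 13 members of the list tested, 8 rose and 1 fell (median 1.06); without control replicate 3, 7 rose and 0 fell. The aggrecanases Adamts4 and Adamts5 rose by 1.70 ± 0.20 (adjusted p = 0.000482) and 1.58 ± 0.19 (adjusted p = 0.000512), Adamts1 by 1.01 ± 0.25 (adjusted p = 0.0140), and Mmp9, an enzyme of neutrophils and osteoclasts, by 1.06 ± 0.25 (adjusted p = 0.0130). Mmp12 also passed at 1.28 ± 0.36 (adjusted p = 0.0209), though its adjusted p was 0.0671 to 0.0862 without any 1 of control replicate 3 and day 2 replicate 3. Timp3 was the member that fell, at -0.34 ± 0.10 (adjusted p = 0.0221); its adjusted p was 0.0543 to 0.0874 without any 1 of control replicates 1 and 3 and day 2 replicate 1. Mmp2 and Mmp14, the gelatinase and membrane-type enzyme of fibroblasts, were at 0.09 ± 0.11 (adjusted p = 0.563) and 0.13 ± 0.12 (adjusted p = 0.459) and did not pass.

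The promoters of Mmp13 and Mmp3 are shown because these genes had the largest rises of the list and each holds a match, in capitals, to TGACTCA, the AP-1 site bound by Fos and Jun proteins; Fosl1, which encodes such a protein, also rose. They run 5′ to 3′ on the plus strand of GRCm38.p6, from RefSeq: chr9:7272264-7272513 for Mmp13, with the match starting 35 bases before the start, and chr9:7445572-7445821 for Mmp3, with the match starting 46 bases before it.
Mmp13: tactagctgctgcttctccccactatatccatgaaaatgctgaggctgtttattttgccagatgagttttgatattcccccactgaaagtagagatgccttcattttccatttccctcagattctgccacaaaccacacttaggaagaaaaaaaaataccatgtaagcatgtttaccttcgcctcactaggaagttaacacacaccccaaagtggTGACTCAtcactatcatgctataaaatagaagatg
Mmp3: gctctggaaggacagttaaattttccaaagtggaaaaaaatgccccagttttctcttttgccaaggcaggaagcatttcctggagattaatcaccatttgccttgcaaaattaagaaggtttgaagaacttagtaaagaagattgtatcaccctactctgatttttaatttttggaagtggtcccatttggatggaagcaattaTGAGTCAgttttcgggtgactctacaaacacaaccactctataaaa
In the same 300-base windows, searched on both strands, 3 of the 9 listed genes with a promoter in the table held the letters (Mmp3, Mmp12 and Mmp13), against 5.95% of all genes; among the listed cytokine genes it was 6 of 14.

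Matrix genes themselves moved less and in both directions. Of 19 tested, 8 rose and 2 fell, with a median of 0.36; without control replicate 3 the counts were 7 and 2. Lox, lysyl oxidase, which cross-links collagen and elastin, was at 522, 375 and 445 CPM in the controls and 2243, 1998 and 2370.4 CPM at day 2, so that every day 2 library was several times every control. Lox rose by 2.30 ± 0.20 (adjusted p = 0.000114) and Fn1, fibronectin, by 1.40 ± 0.15 (adjusted p = 0.000267). Eln, Fbn1, Col12a1 and Tnc, tenascin C, rose by 0.88 ± 0.10 (adjusted p = 0.000331), 0.84 ± 0.10 (adjusted p = 0.000352), 0.90 ± 0.13 (adjusted p = 0.000895) and 0.99 ± 0.21 (adjusted p = 0.00713). Col14a1 and Thbs2 were the members that fell, at -0.71 ± 0.09 (adjusted p = 0.000506) and -0.48 ± 0.11 (adjusted p = 0.00933). The abundant collagens did not pass the test: Col1a1 was at 0.00 ± 0.24 (adjusted p = 0.997), Col1a2 at -0.03 ± 0.25 (adjusted p = 0.942) and Col3a1 at 0.26 ± 0.16 (adjusted p = 0.215).

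**Figure D3:**
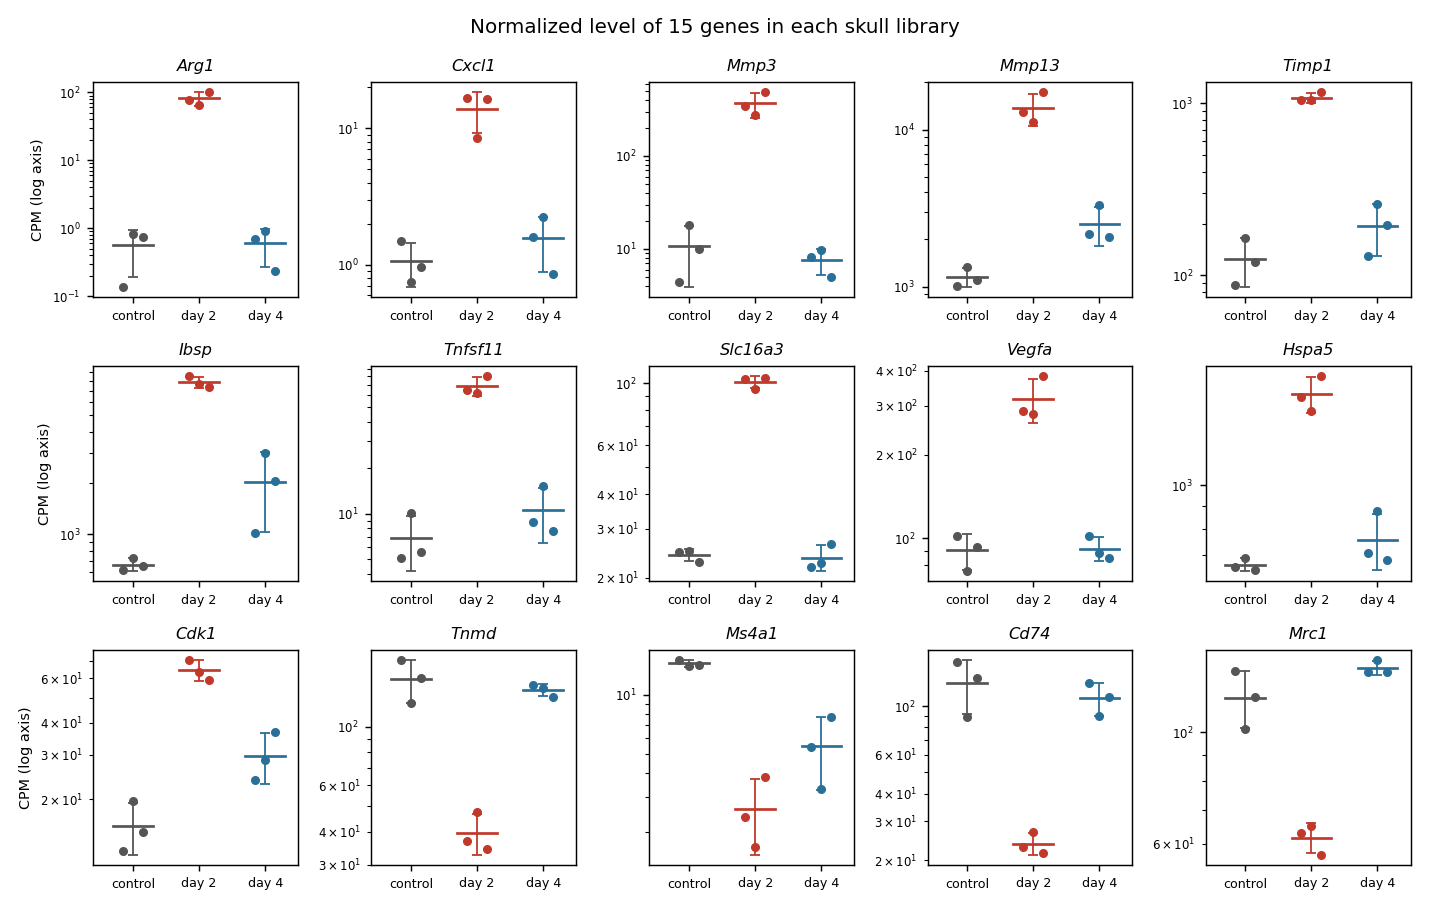
CPM on a log axis of 15 genes in the control, day 2 and day 4 libraries of the skull; points are libraries, the line is the mean and the bar the SD (n = 3 per group). Arg1, Cxcl1, Mmp3, Mmp13, Timp1, Ibsp, Tnfsf11, Slc16a3, Vegfa, Hspa5 and Cdk1 are higher in all day 2 libraries than in all controls, and Tnmd, Ms4a1, Cd74 and Mrc1 are lower.

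Among osteoblast genes, bone sialoprotein and osteopontin rose, an osteocalcin gene fell, and most did not pass the test. Ibsp, bone sialoprotein, at chr5:104299171-104311469, was at 615, 729 and 653 CPM in the controls and 8533, 7651 and 7359.5 CPM at day 2. Spp1, osteopontin, was at 2080.3, 1405 and 1824 CPM in the controls and 7960.3, 7204 and 12309 CPM at day 2. Bglap2, an osteocalcin gene of mature osteoblasts, was at 713, 175 and 519 CPM in the controls and 89.4, 102 and 58.3 CPM at day 2. All day 2 libraries lay above all controls for Ibsp and Spp1 and below all controls for Bglap2, whose controls spanned a wide range with replicate 2 lowest. Ibsp rose by 3.56 ± 0.36 (adjusted p = 0.000349) and Spp1 by 2.37 ± 0.23 (adjusted p = 0.000201), while Bglap2 changed by -2.49 ± 0.49 (adjusted p = 0.00725). In all, 2 of the 12 osteoblast members tested rose and 1 fell (median 0.32), and 2 and 1 without control replicate 3. These shares were no higher than those of all genes tested, of which 17.8% rose and 16.6% fell. The count that rose was 5 with day 4 replicate 1 left out, and the count that fell was 2 with any 1 of control replicate 2 and day 2 replicate 1 left out. The transcription factors Runx2 and Sp7 were at 0.25 ± 0.12 (adjusted p = 0.130) and 0.46 ± 0.19 (adjusted p = 0.0931), and Alpl, alkaline phosphatase, at 0.39 ± 0.15 (adjusted p = 0.0765). Among osteocyte genes, Dmp1, a matrix phosphoprotein, rose by 1.68 ± 0.15 (adjusted p = 0.000131) and Pdpn, podoplanin, by 1.25 ± 0.23 (adjusted p = 0.00387). Sost, the osteocyte inhibitor of Wnt signalling, was at 2.15, 3.17 and 1.84 CPM in the controls and 0.678, 0.733 and 0.395 CPM at day 2 and fell by 1.98 ± 0.32 (adjusted p = 0.00162).

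The cytokine that drives bone resorption and its decoy receptor both rose. Tnfsf11, which encodes RANKL, the cytokine that osteoclasts need to form, at chr14:78277445-78308043, was at 5.11, 10.1 and 5.5997 CPM in the controls and 65.1, 62.1 and 80.7 CPM at day 2. Tnfrsf11b, which encodes osteoprotegerin, its decoy receptor, was at 19.97, 30.1 and 21.8 CPM in the controls and 56.8, 44.5 and 52.0 CPM at day 2. Every day 2 library lay above every control in both. Tnfsf11 rose by 3.32 ± 0.33 (adjusted p = 0.000331) and Tnfrsf11b by 1.09 ± 0.17 (adjusted p = 0.00134). Of the 13 osteoclast genes tested, 5 rose and none fell (median 0.54), while 17.8% of all genes tested rose and 16.6% fell. But the osteoclast count was 2 with any 1 of control replicate 3 and day 2 replicates 1 and 3 left out. It was 3 with any 1 of control replicate 1 and day 4 replicate 3 left out. Dcstamp, a protein of osteoclast fusion, and Itgb3 kept their calls in all of these, at 1.20 ± 0.23 (adjusted p = 0.00397) and 0.69 ± 0.15 (adjusted p = 0.00619). Ctsk and Acp5, the acid protease and phosphatase of working osteoclasts, were at 0.69 ± 0.24 (adjusted p = 0.0515) and 0.44 ± 0.24 (adjusted p = 0.184). Growth factor signalling in bone was divided, with 8 of 20 members higher and 6 lower (6 and 5 without control replicate 3). Inhba, which makes activin A, went from 37.9, 19.7 and 30.7 CPM to 182, 133 and 229.9 CPM. It rose by 2.62 ± 0.30 (adjusted p = 0.000667), Igfbp3, a carrier of insulin-like growth factors, by 1.77 ± 0.20 (adjusted p = 0.000433), and Igf1 by 0.60 ± 0.09 (adjusted p = 0.00101). Nog, the BMP antagonist noggin, fell by 1.51 ± 0.14 (adjusted p = 0.000126), and the ligands Bmp4 and Bmp7 changed by -0.80 ± 0.12 (adjusted p = 0.00112) and -0.86 ± 0.19 (adjusted p = 0.00636).

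Genes of glycolysis and of the hypoxia response rose almost without exception. Of 20 tested, 19 rose and none fell, with a median of 1.13; without control replicate 3 it was 19 as well. Vegfa, the growth factor of blood vessels, at chr17:46016993-46032369, was at 102, 76.1 and 93.0 CPM in the controls and 287, 281 and 384 CPM at day 2. Car9, carbonic anhydrase 9, was at 3.50, 1.62 and 3.00 CPM in the controls and 14.7, 15.1 and 19.6 CPM at day 2. Pgk1, phosphoglycerate kinase, was at 41.8, 55.2 and 41.5 CPM in the controls and 125, 133 and 132 CPM at day 2. The groups were separate in all 3, and the day 2 libraries lay close together. Vegfa rose by 1.81 ± 0.15 (adjusted p = 9.04e-05), Car9 by 2.60 ± 0.27 (adjusted p = 0.000225) and Pgk1 by 1.49 ± 0.13 (adjusted p = 9.34e-05). Further enzymes of the pathway were Ldha, lactate dehydrogenase, at 1.18 ± 0.12 (adjusted p = 0.000170), Pfkfb3 at 1.37 ± 0.14 (adjusted p = 0.000182), Eno1 at 1.60 ± 0.17 (adjusted p = 0.000331) and Hk2 at 0.92 ± 0.18 (adjusted p = 0.00492). The glucose transporter Slc2a1 rose by 1.09 ± 0.20 (adjusted p = 0.00337). Among the other targets of hypoxia-inducible factor, Adm, adrenomedullin, rose by 2.25 ± 0.24 (adjusted p = 0.000231), Bnip3, a mitophagy receptor, by 1.57 ± 0.18 (adjusted p = 0.000367), and Egln3, an oxygen-sensing prolyl hydroxylase, by 1.58 ± 0.23 (adjusted p = 0.000935). Aldoa was the member that did not pass, at 672, 570.0 and 617 CPM in the controls and 460.5, 565 and 588 CPM at day 2, a change of -0.20 ± 0.14 (adjusted p = 0.280). Gapdh and Eno1 have near-identical copies elsewhere in the genome, so their levels are uncertain. The 14 respiratory chain genes tested had none called in either direction by edgeR (1 higher and 1 lower at an unadjusted p under 0.05; 1 higher and 0 lower by DESeq2; 0 and 0 by limma voom), and their changes ran from -0.23 to 0.17.

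The promoters of Pgk1 and Car9 are shown because both genes were higher in every day 2 library than in any control and hold ACGTG, the core of the hypoxia response element, read on either strand; capitals mark each match. They run 5′ to 3′ on the plus strand of GRCm38.p6, from RefSeq: chrX:106186850-106187099 for Pgk1, with matches starting 150 and 131 bases before the start, and chr4:43506776-43507025 for Car9, with 1 match starting 18 bases before it.
Pgk1: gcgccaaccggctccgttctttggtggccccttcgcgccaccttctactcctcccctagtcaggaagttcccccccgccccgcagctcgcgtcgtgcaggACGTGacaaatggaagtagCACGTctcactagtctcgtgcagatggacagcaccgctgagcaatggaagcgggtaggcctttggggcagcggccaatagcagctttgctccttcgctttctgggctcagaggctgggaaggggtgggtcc
Car9: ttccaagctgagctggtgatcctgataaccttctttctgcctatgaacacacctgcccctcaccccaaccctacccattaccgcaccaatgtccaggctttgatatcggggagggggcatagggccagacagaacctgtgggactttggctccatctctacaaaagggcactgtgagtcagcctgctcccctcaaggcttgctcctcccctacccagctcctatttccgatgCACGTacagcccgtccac
Over 300 bases and both strands, 14 of the 19 listed genes with a promoter in the table held ACGTG (73.7%), against 21.8% of all genes. The share was 41.7% in the stress response list and 36.8% in the cell cycle list. In the other lists searched it ran from 0% to 23.1%. The motif is short, and these shares are descriptions with no test.

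Chaperone genes of the endoplasmic reticulum such as Hspa5 rose, and so did Trib3 and Asns of the same list. The transcription factor genes Atf4, Atf3 and Ddit3 did not. Hspa5, the chaperone BiP, at chr2:34771970-34777547, was at 658, 689.6 and 648 CPM in the controls and 1573, 1463 and 1755 CPM at day 2. Pdia4, a disulfide isomerase, was at 97.9, 109.6 and 104 CPM in the controls and 268, 266 and 296 CPM at day 2. Creld2, a secreted stress protein, was at 45.0, 41.7 and 39.9 CPM in the controls and 72.3, 70.1 and 67.0 CPM at day 2. The day 2 libraries were above the controls in all of them, with little spread inside a group. Hspa5 rose by 1.26 ± 0.11 (adjusted p = 0.000126), Pdia4 by 1.41 ± 0.12 (adjusted p = 7.85e-05) and Creld2 by 0.73 ± 0.10 (adjusted p = 0.000843). Of 13 members of the list tested, 8 rose and 1 fell (median 0.73); without control replicate 3, 8 rose and 0 fell. Ddit3, which encodes the death-promoting factor CHOP, was the member that fell, at -0.42 ± 0.12 (adjusted p = 0.0227); its adjusted p was 0.0526 to 0.0757 without any 1 of control replicates 1 and 3 and day 2 replicates 1 and 3. Atf4 and Atf3 were at 0.22 ± 0.11 (adjusted p = 0.151) and -0.01 ± 0.44 (adjusted p = 0.987).

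The promoters of Hspa5 and Creld2 are shown because a full match to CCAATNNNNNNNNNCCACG, the endoplasmic reticulum stress element, is rare. It is in capitals, and the sequences run 5′ to 3′ on the plus strand of GRCm38.p6, from RefSeq: chr2:34771840-34772089 for Hspa5, with the match starting 65 bases before the start, and chr15:88819396-88819645 for Creld2, with the match starting 126 bases before it.
Hspa5: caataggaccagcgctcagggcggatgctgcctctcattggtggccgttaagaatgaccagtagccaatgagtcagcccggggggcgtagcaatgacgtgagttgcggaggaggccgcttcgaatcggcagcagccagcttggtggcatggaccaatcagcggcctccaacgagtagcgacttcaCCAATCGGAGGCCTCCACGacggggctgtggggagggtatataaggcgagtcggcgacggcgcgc
Creld2: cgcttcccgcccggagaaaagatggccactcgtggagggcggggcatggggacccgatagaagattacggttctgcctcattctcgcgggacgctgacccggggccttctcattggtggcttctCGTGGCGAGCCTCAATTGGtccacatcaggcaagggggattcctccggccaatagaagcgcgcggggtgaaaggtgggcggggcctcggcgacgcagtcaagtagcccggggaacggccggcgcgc
Of the 12 listed genes with a promoter in the table these 2 held the full element within the 300 bases, on either strand, and 37 of all 27025 genes did (0.137%). The start used for the Hspa5 promoter is that of RefSeq, and the GENCODE start given above lies inside the window shown.

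The oxidative stress genes controlled by NRF2 and the metal-binding genes moved the same way, with 8 of 11 higher, none lower and a median of 0.91 (7 higher without control replicate 3). Hmox1, haem oxygenase 1, was at 34.5, 71.0 and 51.4 CPM in the controls and 319, 413 and 258 CPM at day 2. Mt1, metallothionein 1, was at 60.8, 121 and 88.0 CPM in the controls and 285, 412 and 337 CPM at day 2. Neither gene showed any overlap between the groups. Hmox1 rose by 2.66 ± 0.28 (adjusted p = 0.000468), Mt1 by 1.93 ± 0.27 (adjusted p = 0.00129), Txnrd1, thioredoxin reductase, by 0.96 ± 0.08 (adjusted p = 7.46e-05) and Fth1, the ferritin heavy chain, by 0.91 ± 0.13 (adjusted p = 0.000923). Nqo1 and Gclc, which are also NRF2 targets, were at -0.03 ± 0.21 (adjusted p = 0.914) and 0.03 ± 0.09 (adjusted p = 0.797). In the heat shock list only the mitochondrial pair Hspd1 and Hspe1 rose, by 0.87 ± 0.08 (adjusted p = 0.000126) and 0.49 ± 0.12 (adjusted p = 0.0129); of the other 8 members tested, Hsph1 fell, by 0.65 ± 0.19 (adjusted p = 0.0279), though its adjusted p was 0.0704 to 0.0907 without any 1 of control replicates 1 and 3 and day 2 replicates 1 and 2, and 7 did not pass. The number that fell was 0 with any 1 of control replicates 1 and 3 and day 2 replicates 1 and 2 left out and 4 with control replicate 2 left out. Of all genes tested, 17.8% rose and 16.6% fell. Ribosomal protein genes were slightly higher: 16 of 20 rose, with a median of 0.51. That count was 9 with any 1 of control replicates 1 and 3 and day 2 replicate 1 left out and 10 with day 2 replicate 2 left out. Rpl23, at 321, 331 and 324 CPM in the controls and 486, 471 and 472 CPM at day 2 with no overlap between the groups, rose by 0.55 ± 0.08 (adjusted p = 0.000970). Ribosomal protein genes have many processed copies, so their levels are uncertain.

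All 22 cell cycle genes rose, with a median of 1.49, and all 22 also did without control replicate 3. Cdk1, the kinase that starts mitosis, at chr10:69335146-69352938, was at 12.6, 19.7 and 14.9 CPM in the controls and 70.8, 63.3 and 59.0 CPM at day 2. Ccnb1, its cyclin partner, was at 10.3, 15.2 and 10.4 CPM in the controls and 55.9, 47.1 and 46.0 CPM at day 2. Mcm6, a subunit of the replicative helicase, was at 24.3, 35.9 and 29.4 CPM in the controls and 82.2, 69.7 and 76.8 CPM at day 2. The lowest day 2 library was above the highest control for each of the 22 genes, as it was for 24.9% of all genes tested. Cdk1 rose by 2.03 ± 0.20 (adjusted p = 0.000187), Ccnb1 by 2.05 ± 0.17 (adjusted p = 8.20e-05) and Mcm6 by 1.35 ± 0.15 (adjusted p = 0.000322). The rises ran from 0.78 for Pcna, the replication clamp, to 2.05 for Ccnb1. Mitotic genes such as Plk1, Aurkb and Cdc20 rose by 1.95 ± 0.23 (adjusted p = 0.000424), 1.76 ± 0.29 (adjusted p = 0.00210) and 1.74 ± 0.26 (adjusted p = 0.00159). Genes of nucleotide supply and replication such as Rrm2, Tyms and Mcm2 rose by 1.51 ± 0.20 (adjusted p = 0.000951), 1.45 ± 0.21 (adjusted p = 0.000979) and 0.98 ± 0.14 (adjusted p = 0.00101). Which cells the transcripts came from was not tested. The letters CCAAT, which also open the stress element above, lay on either strand in the 300-base promoter windows of 18 of the 19 listed genes with a promoter in the table, against 41.1% of all genes. The letters were also held by 7 of 7 MHC class II genes and 10 of 12 stress response genes. In the other lists searched the share ran from 20% to 57.9%. A match describes letters only and was not tested as a site.

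Several genes of the monocyte list rose, and several of the tissue macrophage list fell. Ccr2, the receptor for CCL2 on inflammatory monocytes, was at 35.5, 42.0 and 37.6 CPM in the controls and 76.9, 73.4 and 76.9 CPM at day 2. Cx3cr1, the fractalkine receptor of patrolling monocytes and resident macrophages, was at 29.7, 28.8 and 30.0 CPM in the controls and 12.95, 13.6 and 10.8 CPM at day 2. Mrc1, the mannose receptor of resident macrophages, was at 132, 102 and 118 CPM in the controls and 63.1, 65.1 and 56.9 CPM at day 2. Ccr2 was about level within each group and separate between them, and Cx3cr1 and Mrc1 were as separate in the other direction. Ccr2 rose by 0.98 ± 0.10 (adjusted p = 0.000168), while Cx3cr1 changed by -1.25 ± 0.12 (adjusted p = 0.000140) and Mrc1 by -0.93 ± 0.10 (adjusted p = 0.000284). The complement genes C1qa, C1qb and C1qc, made by macrophages, changed by -0.93 ± 0.11 (adjusted p = 0.000361), -0.98 ± 0.11 (adjusted p = 0.000284) and -1.003 ± 0.14 (adjusted p = 0.000734). In the monocyte list 7 of 12 rose and 2 fell (median 0.58), and in the tissue macrophage list 1 rose and 6 of 12 fell (median -0.67). Without control replicate 3 the counts were 5 and 1 for monocytes and 0 and 4 for macrophages. The monocyte genes that rose included Fn1, given above as a matrix gene, and Ly6c2 and Vcan. For Ly6c2 the adjusted p was 0.0529 to 0.146 without any 1 of control replicates 1, 2 and 3, day 2 replicate 3 and day 4 replicate 3. For Vcan it was 0.0546 to 0.0616 without any 1 of control replicate 3 and day 2 replicates 1 and 3. The other monocyte gene that fell was Csf1r, the receptor for CSF1, at -0.36 ± 0.13 (adjusted p = 0.04997); its adjusted p was 0.0581 to 0.166 without any 1 of control replicates 1 and 3, day 2 replicates 1, 2 and 3 and day 4 replicates 2 and 3. Slc40a1, the iron exporter ferroportin, was the macrophage gene that rose, by 0.32 ± 0.11 (adjusted p = 0.0425); its adjusted p was 0.0525 to 0.172 without any 1 of control replicates 2 and 3, day 2 replicates 1, 2 and 3 and day 4 replicates 1 and 2. The chemokine receptor Ccr1 rose by 1.55 ± 0.25 (adjusted p = 0.00241), and Vcam1, the endothelial and stromal ligand of leukocyte integrins, by 0.76 ± 0.13 (adjusted p = 0.00223). Sele, Selp and Icam1, the other adhesion molecules of vessel walls, did not pass, at 0.79 ± 0.42 (adjusted p = 0.172), 0.42 ± 0.21 (adjusted p = 0.149) and -0.20 ± 0.14 (adjusted p = 0.309).

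Most neutrophil genes did not pass the test. For comparison, 17.8% of all genes tested rose and 16.6% fell. Of 14 genes of mature neutrophils 5 rose and none fell (median 0.67), and 4 rose without control replicate 3. The count was 8 with any 1 of control replicate 2 and day 4 replicate 3 left out, and 8 by DESeq2. In all, 13 of the 14 had a higher mean at day 2. Their summed level was 1283, 1997 and 1592 CPM in the controls and 2710, 2594 and 2866 CPM at day 2. The precursor granule genes, which include Igfbp4, summed to 573, 774 and 651 CPM in the controls and 1425, 1381 and 1407 CPM at day 2. The sums for later stages overlapped, at 709, 1372 and 962 CPM and 1597, 1435 and 1169 CPM. Slpi, a protease inhibitor, was at 26.4, 21.5 and 25.8 CPM in the controls and 71.3, 85.5 and 66.1 CPM at day 2. Il1r2, the decoy receptor of interleukin 1, was at 1.41, 2.09 and 2.46 CPM in the controls and 7.73, 6.67 and 9.14 CPM at day 2. Both had separate groups and rose by 1.60 ± 0.17 (adjusted p = 0.000269) and 1.98 ± 0.32 (adjusted p = 0.00155), and Ccl6 rose by 1.47 ± 0.24 (adjusted p = 0.00232). S100a9, an abundant cytosolic protein of neutrophils, was at 513, 873 and 693 CPM in the controls and 1019, 1079 and 1089.9 CPM at day 2 and did not pass (0.62 ± 0.23, adjusted p = 0.0669). Of the granule genes of precursors 1 of 9 rose, Igfbp4 (1.22 ± 0.08, adjusted p = 4.19e-05), which stromal cells also express; Mpo and Elane, the defining granule enzymes, were at 0.47 ± 0.31 (adjusted p = 0.277) and 0.37 ± 0.42 (adjusted p = 0.522). Of the granule genes of later stages 2 of 12 rose, Serpinb1a (1.29 ± 0.21, adjusted p = 0.00246) and Chil3 (1.17 ± 0.26, adjusted p = 0.00925), and Ltf and Camp were at 0.18 ± 0.33 (adjusted p = 0.709) and 0.51 ± 0.26 (adjusted p = 0.168). The regulators Cebpb, a transcription factor of emergency granulocyte production, and Csf3r, the receptor for G-CSF, rose by 1.14 ± 0.26 (adjusted p = 0.00893) and 0.55 ± 0.17 (adjusted p = 0.0298); for Csf3r its adjusted p was 0.0822 to 0.109 without any 1 of control replicates 1 and 3 and day 2 replicates 2 and 3.

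All 12 genes of mature B cells fell (16.6% of all genes tested did), with a median of -2.09; without control replicate 3 it was 11. Ms4a1, which encodes CD20, at chr19:11249675-11266241, was at 15.1, 14.1 and 14.2 CPM in the controls and 2.37, 1.67 and 3.81 CPM at day 2. Ighm, the constant part of the IgM heavy chain, was at 122, 91.5 and 113 CPM in the controls and 26.3, 22.7 and 31.2 CPM at day 2. Each day 2 library lay well under the lowest control in both genes. Ms4a1 changed by -2.46 ± 0.35 (adjusted p = 0.000880) and Ighm by -2.02 ± 0.29 (adjusted p = 0.00156). Jchain, the joining chain of secreted antibody, and Irf4, a transcription factor of plasma cells, also fell, changing by -2.09 ± 0.29 (adjusted p = 0.000875) and -2.12 ± 0.32 (adjusted p = 0.00120). The plasma cell list, which holds Jchain and Irf4, was split: 4 of 7 rose and 3 fell (median 0.29), with summed levels of 267, 293 and 270.3 CPM in the controls and 446, 399.7 and 443 CPM at day 2. The number that rose was 1 with any 1 of control replicate 3 and day 2 replicate 3 left out and 2 with any 1 of control replicate 1 and day 2 replicate 2 left out. The members that rose were Sdc1, syndecan 1, by 1.76 ± 0.17 (adjusted p = 0.000173), the transcription factors Prdm1 and Xbp1, by 0.75 ± 0.19 (adjusted p = 0.0147) and 0.29 ± 0.09 (adjusted p = 0.0362), and Derl3, a part of the degradation machinery of the endoplasmic reticulum, by 1.15 ± 0.37 (adjusted p = 0.0378). Apart from Sdc1 these calls were lost when single libraries were left out: for Prdm1 its adjusted p was 0.0574 to 0.0609 without any 1 of control replicate 3 and day 2 replicate 3, for Xbp1 its adjusted p was 0.0687 to 0.115 without any 1 of control replicates 1 and 3 and day 2 replicates 1, 2 and 3, and for Derl3 its adjusted p was 0.0531 to 0.134 without any 1 of control replicates 1, 2 and 3, day 2 replicates 2 and 3 and day 4 replicate 1. Mzb1, a chaperone of antibody secretion, fell by 1.32 ± 0.45 (adjusted p = 0.0461), and its adjusted p was 0.0562 to 0.142 without any 1 of control replicates 1 and 3, day 2 replicates 1, 2 and 3 and day 4 replicate 1. Of the 9 early B cell genes tested 3 fell and 1 rose (median -0.48). The number that fell was 1 to 5 with 1 of the skull libraries left out. Vpreb3 fell by 2.01 ± 0.49 (adjusted p = 0.0116). The gene that rose was Cd93, which endothelium and myeloid cells also express, by 0.87 ± 0.10 (adjusted p = 0.000290).

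Genes of antigen presentation by MHC class II, which B cells, dendritic cells and macrophages use, also fell. All 9 tested genes fell, with a median of -1.68; without control replicate 3 it was 8. Cd74, the invariant chain, at chr18:60803848-60812652, was at 158, 89.0 and 134 CPM in the controls and 22.9, 26.8 and 21.6 CPM at day 2. H2-Eb1, a class II beta chain, was at 54.7, 32.6 and 44.9 CPM in the controls and 9.36, 9.73 and 6.97 CPM at day 2. Ciita, the transactivator that class II genes need, was at 11.4, 10.9 and 9.36 CPM in the controls and 3.05, 4.87 and 3.16 CPM at day 2. The day 2 libraries were all lower than the controls, and control replicate 2 was the lowest control for Cd74 and H2-Eb1. Cd74 changed by -2.42 ± 0.22 (adjusted p = 0.000189), H2-Eb1 by -2.34 ± 0.25 (adjusted p = 0.000331) and Ciita by -1.51 ± 0.22 (adjusted p = 0.000950). The class II genes are polymorphic and have close relatives, so the levels of single genes are uncertain. H2-DMb1 had the highest adjusted p of the 9, at -1.67 ± 0.50 (adjusted p = 0.0282); its adjusted p was 0.0619 to 0.0945 without any 1 of control replicates 2 and 3 and day 2 replicates 1 and 2.

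Of the T and NK cell genes 7 of 11 fell and none rose (median -1.21), but the count was 2 with day 2 replicate 1 left out, and 5 without control replicate 3. Cd4 was at 9.82, 8.44 and 9.90 CPM in the controls and 2.58, 2.80 and 4.21 CPM at day 2 and fell by 1.55 ± 0.20 (adjusted p = 0.000590). Lck, the kinase of the T cell receptor, fell by 1.11 ± 0.23 (adjusted p = 0.00486). Among dendritic cell genes, Zbtb46 and Cd209a changed by -0.65 ± 0.11 (adjusted p = 0.00201) and -2.74 ± 0.48 (adjusted p = 0.00283); Xcr1 and Clec9a were at -1.15 ± 0.44 (adjusted p = 0.0682) and -0.08 ± 0.26 (adjusted p = 0.836). In this list 4 of 10 fell (16.6% of all genes tested did). The count was 2 with any 1 of control replicates 1 and 3 and day 2 replicates 1 and 2 left out. The 4 included Cox6a2, which striated muscle also expresses and which is described below, and Siglech. For Siglech the adjusted p was 0.0543 to 0.134 without any 1 of replicates 1 and 3 of control, 1 and 2 of day 2 and 1 and 2 of day 4. Mgl2 and Pla2g2d, which mark subsets of dendritic cells and macrophages, changed by -3.16 ± 0.39 (adjusted p = 0.000632) and -3.09 ± 0.45 (adjusted p = 0.00101). They were among the 10 largest falls without overlap once muscle genes, and genes at least 4-fold higher in control cortex than in control skull, were set aside. Mgl2 was at 30.3, 11.8 and 22.3 CPM in the controls and 2.58, 3.13 and 1.45 CPM at day 2, with no overlap.

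The red cell list had a lower summed level at day 2, to different degrees in the 3 libraries, and 7 of its 15 tested genes fell (16.6% of all genes tested did). This sum was 15902, 20649 and 16713 CPM in the controls and 11239, 6787 and 1985 CPM in day 2 replicates 1, 2 and 3. Replicate 3 was the lowest by a wide margin, and the groups did not overlap in this sum. None rose, the median was -1.51, and the number that fell was 12 with DESeq2; with edgeR it was 2 with day 2 replicate 2 left out, 3 with control replicate 3 left out and 4 with control replicate 1 left out. Hemgn, a nuclear protein of erythroid precursors, was at 27.0, 16.8 and 25.7 CPM in the controls and 6.58, 3.93 and 2.37 CPM at day 2 and fell by 2.43 ± 0.45 (adjusted p = 0.00495). Fech, the last enzyme of haem synthesis, fell by 0.78 ± 0.18 (adjusted p = 0.0109). The globin genes Hbb-bs and Hba-a1 were at -1.37 ± 0.53 (adjusted p = 0.0848) and -1.62 ± 0.65 (adjusted p = 0.0939) and did not pass. Of the 12 megakaryocyte and platelet genes, Vwf, the von Willebrand factor that endothelium also makes, fell by 1.29 ± 0.19 (adjusted p = 0.00128), and the other 11 did not pass, among them Itga2b at -0.06 ± 0.30 (adjusted p = 0.900) and Gp1ba at 0.35 ± 0.33 (adjusted p = 0.441).

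Most genes of cartilage, tendon and sutures fell, with a large rise in Prg4. Tnmd, tenomodulin, a surface protein of tendon and ligament cells, at chrX:133850980-133865577, was at 178, 122 and 153 CPM in the controls and 36.8, 47.6 and 34.5 CPM at day 2. Col2a1, the collagen of cartilage, was at 21.9, 15.6 and 20.4 CPM in the controls and 3.59, 3.53 and 3.48 CPM at day 2. Prg4, the joint lubricant lubricin, was at 25.8, 85.5 and 51.6 CPM in the controls and 478, 939 and 1229 CPM at day 2. Tnmd and Col2a1 were lower in every day 2 library and Prg4 was higher in every one. Tnmd changed by -1.93 ± 0.16 (adjusted p = 8.14e-05), Col2a1 by -2.44 ± 0.41 (adjusted p = 0.00264) and Prg4 by 4.02 ± 0.55 (adjusted p = 0.00181). In all 7 of 12 fell and 1 rose (median -0.88; without control replicate 3, 6 and 1). Chad, chondroadherin, changed by -2.14 ± 0.21 (adjusted p = 0.000193), Gli1, a marker of suture stem cells, by -1.31 ± 0.14 (adjusted p = 0.000269), and Scx, a tendon transcription factor, by -1.11 ± 0.19 (adjusted p = 0.00206). Sox9 and Acan, the regulator and proteoglycan of cartilage, were at 0.32 ± 0.18 (adjusted p = 0.187) and 0.29 ± 0.30 (adjusted p = 0.487).

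Most genes of mural cells, which wrap vessels, also fell. In the mural and smooth muscle list 6 of 9 fell and 1 rose (median -0.62; 5 and 1 without control replicate 3). Myl9, the light chain that Mylk phosphorylates, was at 153, 227 and 177 CPM in the controls and 100.1, 98.5 and 65.0 CPM at day 2, all day 2 libraries below all controls, and fell by 1.08 ± 0.19 (adjusted p = 0.00276). Acta2, Myh11 and Notch3 changed by -0.63 ± 0.14 (adjusted p = 0.00779), -0.61 ± 0.13 (adjusted p = 0.00684) and -0.62 ± 0.13 (adjusted p = 0.00536); Cspg4, the proteoglycan NG2 of pericytes, rose by 0.57 ± 0.13 (adjusted p = 0.00887). Of the 11 endothelial genes 4 fell and none rose (median -0.21), and 3 fell without control replicate 3. Of all genes tested, 16.6% fell. The endothelial genes that fell included the receptors Tek and Tie1, at -0.58 ± 0.12 (adjusted p = 0.00529) and -0.42 ± 0.09 (adjusted p = 0.00721). Pecam1, Cdh5 and Kdr, which mark endothelium in general, were at -0.21 ± 0.11 (adjusted p = 0.177), 0.21 ± 0.10 (adjusted p = 0.135) and 0.02 ± 0.14 (adjusted p = 0.933). In fibroblasts of dura and periosteum Slc47a1, a transporter of dural fibroblasts, was at 222, 235 and 216 CPM in the controls and 39.9, 46.3 and 43.3 CPM at day 2, with no overlap, and changed by -2.38 ± 0.20 (adjusted p = 0.000131). Pdgfra rose by 0.81 ± 0.11 (adjusted p = 0.000773) and Dpp4 changed by -1.38 ± 0.26 (adjusted p = 0.00314), while Lum and Dcn, the abundant small proteoglycans, were at 0.22 ± 0.12 (adjusted p = 0.182) and -0.06 ± 0.16 (adjusted p = 0.791). In marrow stroma Cxcl12, the chemokine that holds blood progenitors and B cells in the marrow, went from 376, 301 and 357 CPM to 724, 707 and 726 CPM and rose by 1.06 ± 0.11 (adjusted p = 0.000267). Lepr and Kitl, the other defining stromal genes, were at 0.38 ± 0.13 (adjusted p = 0.0518) and 0.17 ± 0.12 (adjusted p = 0.304). Others of the 10 largest falls left by that 4-fold limit and the muscle list were Tac1, the precursor of substance P, at -3.77 ± 0.61 (adjusted p = 0.00185), the cartilage protein Cytl1 at -3.25 ± 0.45 (adjusted p = 0.000754), Chodl at -3.42 ± 0.59 (adjusted p = 0.00277), Kcnt1, a sodium-activated potassium channel, at -3.39 ± 0.42 (adjusted p = 0.000847) and Baiap3 at -3.18 ± 0.32 (adjusted p = 0.000187). Kcnt1 and Tac1, though under the limit, were more abundant in control cortex than in control skull, at 185 against 53.8 CPM and 22.8 against 10.4 CPM, and the part of brain RNA in their falls was not tested. The remaining 3 of the 10 were Cox6a2, Nmrk2 and Lmod3, which striated muscle expresses. Cox6a2 was at -3.92 ± 1.23 (adjusted p = 0.0467), and its adjusted p was 0.0525 to 0.121 without any 1 of control replicates 1, 2 and 3, day 2 replicates 1, 2 and 3 and day 4 replicate 3. Nmrk2 was at -3.63 ± 0.94 (adjusted p = 0.0188), and its adjusted p was 0.0633 to 0.0687 without any 1 of day 2 replicates 1 and 2. Lmod3 was at -3.20 ± 1.02 (adjusted p = 0.0448), and its adjusted p was 0.0503 to 0.129 without any 1 of control replicates 1, 2 and 3, day 2 replicates 1, 2 and 3 and day 4 replicate 3.

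Genes of tissues next to the bone were uneven among the libraries, and they were part of the comparison. The summed level of the 15 neuron genes was 1249, 766 and 1063 CPM in control replicates 1, 2 and 3 and 132, 272 and 237 CPM at day 2, so every control was above every day 2 library. Of these genes 13 fell and none rose (median -3.38); the count was 8 with any 1 of day 2 replicates 1 and 3 left out, 9 without control replicate 3, and 2 with controls 1 and 2 alone against day 2. Slc17a7, the vesicular transporter of glutamate neurons, was at 63.0, 22.1 and 55.5 CPM in the controls and 2.37, 4.87 and 4.34 CPM at day 2 and changed by -3.60 ± 0.42 (adjusted p = 0.000664). The 10 largest falls of protein-coding genes at that level and without overlap were all cortex-rich genes, and so were 878 of the 2901 genes that fell and 42 of the 3106 that rose, out of 1603 cortex-rich genes tested. Gpr26, the largest, had 563 counts in the controls and 2 at day 2, 286-fold lower (95% exact interval 78.7 to 2364, counting error only; adjusted p = 0.00208). Grin2b and Faim2 followed the same pattern, at -5.76 ± 1.01 (adjusted p = 0.00387) and -4.76 ± 0.77 (adjusted p = 0.00266), with control replicate 2 the lowest control in all 3. The astrocyte genes Slc1a2 and Aqp4 fell with them, at -3.40 ± 0.64 (adjusted p = 0.00680) and -1.88 ± 0.60 (adjusted p = 0.0431), although for Aqp4 its adjusted p was 0.0551 to 0.122 without any 1 of control replicates 1 and 3, day 2 replicates 1 and 2 and day 4 replicates 1, 2 and 3. Gja1, connexin 43, which bone cells also express, rose by 1.01 ± 0.11 (adjusted p = 0.000284). Of the 8 oligodendrocyte and myelin genes tested, 7 were cortex-rich, and 0 passed by edgeR in either direction (median -0.84). The number lower was 0 to 2 without 1 library, 3 by DESeq2 and 1 by limma voom.

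The summed level of the skeletal muscle list was 6877, 1370.3 and 4718 CPM in the controls and 50.3, 407 and 1515 CPM at day 2. Day 2 replicate 3 was above control replicate 2. None of the 19 muscle genes tested passed the edgeR test in either direction (median -2.75), while 4 were lower at an unadjusted p under 0.05. The count of lower genes was 6 by DESeq2 and 0 by limma voom, and by edgeR 1 with any 1 of control replicate 2 and day 2 replicate 3 left out and 3 with day 4 replicate 1 left out. Acta1, skeletal alpha actin, was at 651, 137 and 463 CPM in the controls and 0.339, 45.5 and 139.8 CPM at day 2. The pineal gland lies next to this bone, and its genes, listed after their values were seen, summed to 10.6, 1987 and 735 CPM in the controls and 67.8, 364 and 352 CPM at day 2, with control replicate 2 the highest and control replicate 1 the lowest. None of the 8 tested passed by edgeR, DESeq2 or limma voom, with 0 lower at an unadjusted p under 0.05 by edgeR. Choroid plexus genes went the other way: their sum was 354, 430.0 and 372 CPM in the controls and 522, 11588 and 2804 CPM at day 2, highest in replicate 2. Ttr, transthyretin, the main secreted protein of choroid plexus, was at 1.68, 5.74 and 3.48 CPM in the controls and 72.6, 7433 and 1444 CPM at day 2. Its change of 9.68 ± 2.06 (adjusted p = 0.0126) was the largest of the genes named, but its adjusted p was 0.0514 to 0.0552 without any 1 of control replicates 1 and 3. Of the 10 choroid plexus genes tested 4 rose, and the count was 0 with any 1 of control replicates 1 and 3 left out, 1 with any 1 of control replicate 2 and day 2 replicates 2 and 3 left out, 2 with day 4 replicate 2 left out and 7 with day 2 replicate 1 left out. Htr2c, Prlr, Sostdc1, Drc7 and Kcne2, which are also among the largest rises, had the same order of libraries, with day 2 replicate 2 highest and replicate 1 lowest, and each lost its call when at least 1 library was left out. The part that these tissues had in other results was not tested; when cortex-rich and muscle genes were removed before the fit, 2728 genes rose and 2374 fell.

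**Figure D4:**
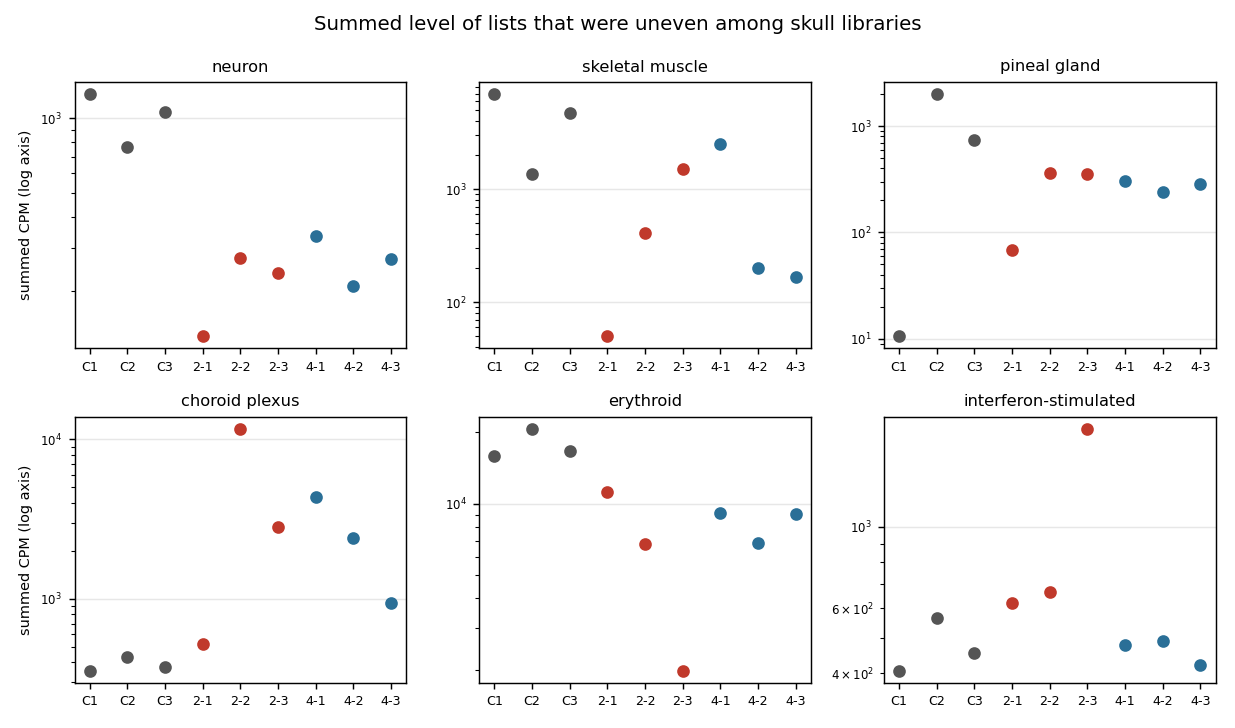
Summed CPM of 6 gene lists in each of the 9 skull libraries on a log axis (C, controls; 2-, day 2; 4-, day 4; the last digit is the replicate). Neuron and muscle genes are highest in control replicate 1, pineal genes in control replicate 2, choroid plexus genes in day 2 replicate 2 and interferon-stimulated genes in day 2 replicate 3, and erythroid genes are lowest in day 2 replicate 3.

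Interferon-stimulated genes were highest in day 2 replicate 3. The 20 genes summed to 407, 565 and 456 CPM in the controls and 620.4, 665 and 1838 CPM at day 2. Irf7, a transcription factor of the interferon response, was at 20.4, 29.8 and 22.3 CPM in the controls and 25.6, 27.1 and 118 CPM at day 2 and did not pass (1.23 ± 0.59, adjusted p = 0.146). Only Ifitm3 passed, at 93.8, 152 and 115 CPM in the controls and 287, 304 and 446 CPM at day 2, a change of 1.52 ± 0.21 (adjusted p = 0.00101); the number that rose was 2 with any 1 of control replicate 2 and day 2 replicate 3 left out, 3 with day 2 replicate 2 left out and 4 with day 2 replicate 1 left out. The list's median of 1.25 came with 1 member called by edgeR and 3 by DESeq2. Among immediate early genes 3 of 16 rose and 3 fell, near the 17.8% and 16.6% of all genes tested, and the number that fell was 1 with any 1 of control replicates 1 and 3 and day 2 replicates 1 and 2 left out, 5 with day 4 replicate 1 left out and 6 with control replicate 2 left out. The members that rose were Fosl1, Ier3 (2.37 ± 0.18, adjusted p = 5.11e-05) and Junb (0.90 ± 0.15, adjusted p = 0.00211); Fos, Jun and Egr1 were at -1.13 ± 0.80 (adjusted p = 0.312), -0.51 ± 0.47 (adjusted p = 0.444) and -0.40 ± 0.50 (adjusted p = 0.561). Jun was at 195, 45.9 and 148 CPM in the controls and 88.8, 79.3 and 106 CPM at day 2, with the highest value in control replicate 1. The glucocorticoid response list had 7 of 15 higher, and the count was 4 with any 1 of control replicate 3 and day 2 replicate 1 left out; Fkbp5, a feedback inhibitor of the receptor, passed at 0.79 ± 0.22 (adjusted p = 0.0214), but its adjusted p was 0.0519 to 0.0780 without any 1 of control replicates 1 and 3 and day 2 replicates 1 and 2, and Tsc22d3, another direct target, was at -0.84 ± 0.33 (adjusted p = 0.0875).

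Day 4 was set beside day 2 for the same lists and genes; both share the control libraries, so the values are given side by side and are not independent. Directly tested, 1842 genes were higher at day 4 than at day 2 (10.6% of those tested) and 1930 lower (11.1%); the 2 directions together gave 3772 genes (21.6%), but 2260 to 2354 without any 1 of day 2 replicates 1 and 3 and day 4 replicates 1 and 3. All 20 genes of the glycolysis and hypoxia list were lower at day 4 than at day 2, and their median change against control was 1.13 at day 2 and -0.29 at day 4. Vegfa, at 287, 281 and 384 CPM at day 2, was at 102, 88.5 and 84.6 CPM at day 4, within the control range. Of the cytokines 10 of 18 were lower at day 4 than at day 2, with medians against control of 2.48 and 0.57. Il6 was at 0.0641, 1.81 and 0.234 CPM and Arg1 at 0.706, 0.907 and 0.234 CPM at day 4. Mmp13 was at 2156, 3319.5 and 2085 CPM and Ibsp at 1015, 3024 and 2072 CPM, below day 2 and above the controls. Cell cycle genes were lower in 15 of 22 (9 with day 4 replicate 1 left out), with medians against control of 1.49 and 0.82.

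MHC class II genes and most mature B cell genes were higher at day 4 than at day 2. MHC class II genes were higher at day 4 than at day 2 in 8 of 9, with medians against control of -1.68 and -0.16. Cd74 was at 127, 89.9 and 110.2 CPM at day 4. Mature B cell genes were higher in 8 of 12 (2 with day 2 replicate 1 left out, 3 with any 1 of day 2 replicate 2 and day 4 replicate 3 left out, 4 with any 1 of day 2 replicate 3 and day 4 replicate 1 left out and 5 with control replicate 3 left out), with medians of -2.09 and -0.85. For cartilage, tendon and suture genes the medians were -0.88 and -0.09, and for erythroid genes -1.51 and 0.18. The summed erythroid level at day 4 was nevertheless 9169, 6859.8 and 9075 CPM, below every control and within the range of the day 2 libraries. The later neutrophil granule genes, with a median of 0.46 at day 2, were at 1.45 at day 4, and 7 of 12 were higher than at day 2 (1 with day 2 replicate 3 left out, 2 with day 2 replicate 2 left out and 3 with day 4 replicate 3 left out). Camp, a granule peptide precursor, was at 115, 119 and 88.2 CPM at day 2 and 283, 223 and 468 CPM at day 4. Platelet genes were higher at day 4 in 10 of 12 (2 with any 1 of day 4 replicates 1 and 3 left out, 3 with day 2 replicate 3 left out and 4 with day 2 replicate 2 left out). Sost, low at day 2, was at 6.99, 8.41 and 8.11 CPM at day 4, above all controls.

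**Figure D5:**
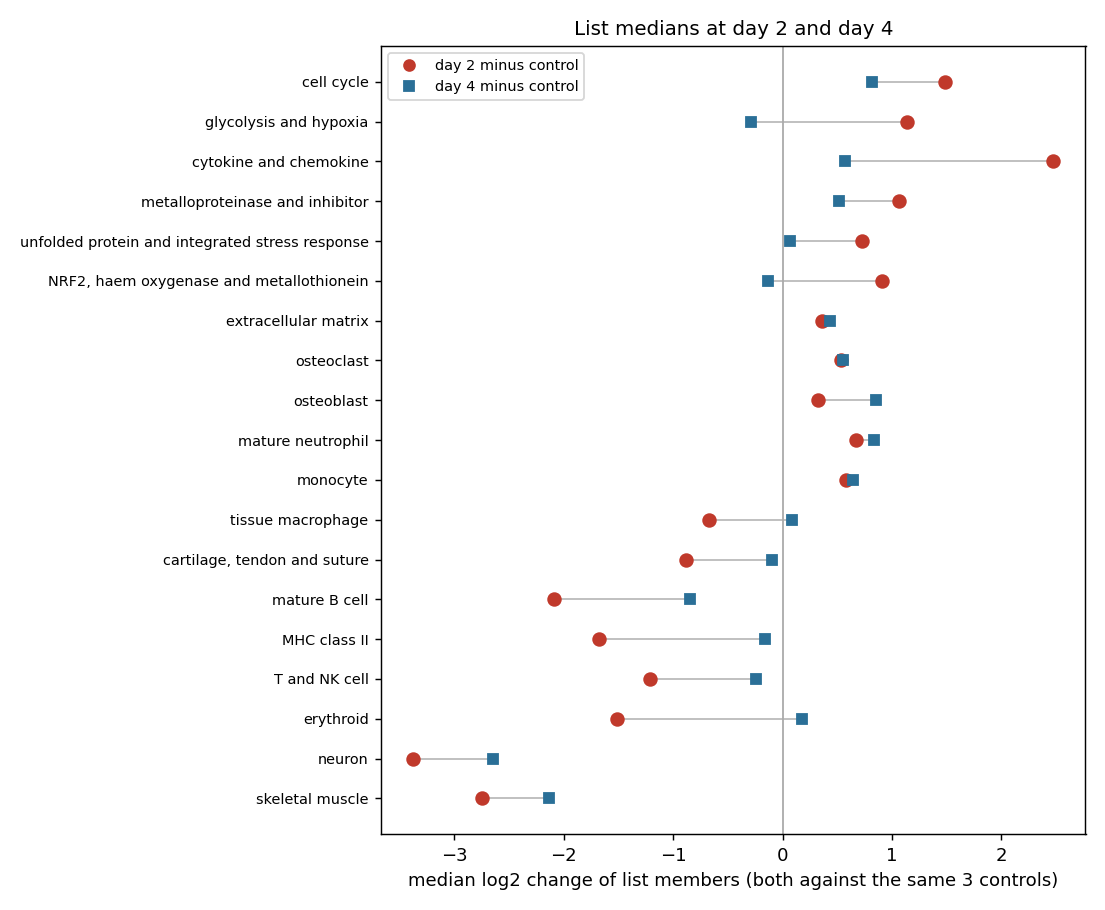
Median log2 change against control of 19 gene lists at day 2 and at day 4 (lines join the values of a list; both times share the 3 control libraries). The glycolysis and hypoxia list goes from 1.13 to -0.29 and the cytokine list from 2.48 to 0.57. The mature neutrophil list goes from 0.67 to 0.84.

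The response of the bone was also tested against that of the cortex in the same study, as an interaction over the 12 libraries of controls and day 2 of both tissues, in which 3313 of 18863 genes were called (17.6%), and 2185 without control replicate 3 of the skull. Among the 6 largest rises of the bone, 4 also rose in cortex: Arg1 by 9.15 ± 0.62 (adjusted p = 3.37e-06), Cxcl2 by 9.34 ± 1.87 (adjusted p = 0.00902), Il6 by 4.80 ± 0.85 (adjusted p = 0.00178) and Cxcl3 by 4.49 ± 0.95 (adjusted p = 0.00870). For Arg1 the difference between the tissues, skull minus cortex, was -2.06 ± 1.06 (adjusted p = 0.209), and over the alternatives run its adjusted p was 0.0453 to 0.407. For Cxcl3 it was 5.24 ± 2.53 (adjusted p = 0.187), with a range of 0.0490 to 1.000. For Cxcl2 it was -0.39 ± 1.03 (adjusted p = 0.832) and for Il6 2.00 ± 1.93 (adjusted p = 0.515), with ranges of 0.441 to 1.000 and 0.306 to 0.683. The differences of Arg1 and Cxcl3 passed with DESeq2 alone, and those of Cxcl2 and Il6 in no setting run. Of the 6 genes, Htr2c, a serotonin receptor abundant in choroid plexus, was the 1 that passed with edgeR and all 12 libraries, with a difference of 7.06 ± 1.81 (adjusted p = 0.0241); over the alternatives run its adjusted p was 7.42e-05 to 0.0692. Ttr was at 7.88 ± 2.54 (adjusted p = 0.0573), with a range of 0.00235 to 0.137; it passed with DESeq2 and without cortex day 2 replicate 2 or skull day 2 replicate 1.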

How the data were processed

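The values are raw read counts per gene name as the authors deposited them, in 1 table with a column for each of 18 bulk RNA libraries. HISAT2 2.1.0 and the mm10 build are named in the submitters' processing notes without a role; which program counted the reads, on which annotation and with which strand setting, is not given in the sources used here. In its 26783 lines the table held 865 identical copies of a line under the same gene name, which were left out, leaving 25918 names. Every column was mapped to a sample by its title.

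Genes were filtered by group with filterByExpr, scaled by TMM and fitted with edgeR 4.0.16 (robust quasi-likelihood, prior count 0.125, R 4.3.3) over the 9 skull libraries, with two-sided tests and Benjamini-Hochberg adjustment over all 17450 genes tested. The 9 libraries held 13142770 to 15445503 counts. Exact 95% intervals of ratios cover counting error only, and the floor for a group without counts was 3 counts over the group. The fit was tested on simulated data. The response in skull against cortex was an interaction in a fit over 12 libraries and 18863 genes.

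Named genes were the 10 that rose and the 10 that fell with the smallest adjusted p, the 10 largest changes in each direction with and without cortex-rich and muscle genes (higher group averaging 5 CPM or more), and up to 5 members of each list by adjusted p, with members that moved against their list. Members outside this rule are given with their values. The gene lists and the comparison were chosen with earlier results of these data known, and the pineal gland list after its values were seen. Alternatives were other scalings and filters, DESeq2 1.42.0, limma 3.58.1 voom, the replicate number as a block, the compared groups alone, and leaving out each library. Promoter sequences and their starts are from RefSeq, GRCm38.p6. The GENCODE starts of Hspa5, Cxcl1 and Cxcl2 lie inside the windows shown for them.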

Additional observations from a re-analysis of the deposited data

Results flagged for a closer look

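The day 2 response of Htr2c, a serotonin receptor gene abundant in choroid plexus, differed between the tissues by 7.06 ± 1.81 on the log2 scale, skull minus cortex (edgeR quasi-likelihood interaction, adjusted p = 0.0241). In skull its mean was 0.248 CPM in the controls and 37.3 CPM at day 2, and in cortex it was 20.7 CPM and 21.8 CPM. The skull day 2 libraries were far apart, at 1.02, 84.9 and 25.9 CPM. The gene was tested here as 1 of the 6 largest rises in skull. That rise lost its call by the edgeR test without any 1 of control replicates 1, 2 and 3 and day 2 replicate 3 (adjusted p 0.0531 to 0.102). The skull rise followed the order of the other choroid plexus genes, with day 2 replicate 2 highest, and the part of choroid plexus RNA in this difference was not tested. Over the alternatives its adjusted p ran from 7.42e-05 to 0.0692.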

How the results depend on the processing

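The 3106 genes higher and 2901 lower at day 2 became 2057 to 3258 and 1967 to 3250 when 1 skull library was left out, with both lowest values without control replicate 3. With controls 1 and 2 alone against day 2, an alternative chosen after seeing the data, they were 1369 and 978. They were 1799 and 1357 at an adjusted p under 0.01, and 786 and 1401 with a 2-fold minimum. The 3772 genes that differed between day 4 and day 2 became 2260 to 4633 without 1 library, and the 3313 interaction genes 2185 to 3979. The cause of these moves was not tested, apart from the smaller number of libraries or the stricter threshold that they use.

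The 13 neuron genes that fell became 8 to 13 without 1 library, 8 with limma voom, 2 with controls 1 and 2 alone and 0 where cortex-rich and muscle genes were removed, since this removes the list. The 5 osteoclast genes that rose became 2 to 7 without 1 library, 2 with controls 1 and 2 alone and 2 with control 1 as the only control, which was also chosen after seeing the data. The 16 ribosomal genes became 9 to 17, 5 and 10 under the same 3 changes. The count of 0 muscle genes lower became 0 to 3 without 1 library, 1 with a stricter filter, 6 with DESeq2, 4 without robust fitting and 2 with the compared groups alone. The counts of mature B cell and MHC class II genes that fell, and of cytokine, cell cycle, glycolysis and hypoxia, stress response, metalloproteinase and NRF2 genes that rose, stayed within 1.5 times under every alternative run. The single gene that fell in each of the stress response and metalloproteinase lists became 0 without control replicate 3, and the metalloproteinase count was 2 with DESeq2. Of 235 named genes, none reversed, 150 kept the call under every alternative and 85 lost it under at least 1.

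In the comparison with cortex, differences that did not pass changed sign in a few settings: Cxcl2, at -0.39, was 0.077 with DESeq2 and ran from -2.16 to 1.75 without 1 library, and Il6, at 2.00, ran from -0.23 to 3.13.

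The labels number the replicates alike in each group, but the numbers are not shown to pair the libraries: the correlations of same-numbered deviations were 0.108, 0.0323 and 0.130 between control and day 2, so that not every one is over 0.1. Control replicates 1 and 2 matched the day 2 library of their own number best, and control replicate 3 matched day 2 replicate 2. With the replicate number as a block, 2641 genes were higher and 2444 lower at day 2, 2876 differed between day 4 and day 2, and 3023 were called in the interaction. With 3 libraries a group, small changes and genes of few counts are limited by the spread between libraries.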
